A study of Homo sapiens with 4 samples.

Results

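PAX5, EBF1, SPIB, POU2AF1, POU2F2, FOXO1 and BACH2 are transcription factors, and in the case of POU2AF1 a coactivator, on which B cells rely for their identity. All probe sets were taken whose platform annotation names exactly 1 gene symbol, that symbol being 1 of these 7, which gave 22 of the 54675 probe sets on the array, and 7 of the 19775 genes that the array names singly. They were followed in the human line Z138, established from mantle cell lymphoma, a malignancy of B cells that commonly expresses the neural and progenitor transcription factor SOX11. Stable lentiviral transductants of 2 kinds were compared on Affymetrix U133 Plus 2.0 arrays, with 1 array per hairpin construct. The shSOX11 group held constructs shSOX11.1 and shSOX11.3 against SOX11, and the shControl group held scrambled constructs shControl.1 and shControl.2, so that all 4 samples carried an integrated vector and a hairpin. The labels do not say whether a sample is a clone or a pool, nor that a construct was cultured more than once, so p-values cover the spread between these 4 samples only, which may be technical.

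PAX5 binds DNA through a paired domain, switches on genes of the B-cell receptor pathway and holds down genes of other lineages. EBF1 acts before and beside it in B-cell commitment, and the 2 factors keep each other expressed. SPIB is an ETS family factor close to PU.1, POU2F2 encodes OCT2, which reads octamer sites in immunoglobulin promoters, and POU2AF1 encodes OBF1, the coactivator that joins OCT factors on those sites. FOXO1 drives genes of early B cells and of recirculation, and BACH2 represses PRDM1 and so delays plasma cell differentiation.

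The promoter sequences of 3 members are shown, chosen as follows. EBF1 was lower at every one of its probe sets, and PAX5 was the member whose brightest probe set differed most between the constructs. BACH2 alone, among the 6 members whose promoter could be searched, held a short SOX core. The sequences are the 250 bases before the annotated start, from RefSeq on GRCh38.p14, read 5′ to 3′ on the gene's strand, with matches to the SOX core in capitals. RefSeq's table had an entry for 6 of the 7 members, with 1 start each. POU2AF1 had none, so its promoter was not searched.
EBF1, chr5:159097957-159098206, minus strand: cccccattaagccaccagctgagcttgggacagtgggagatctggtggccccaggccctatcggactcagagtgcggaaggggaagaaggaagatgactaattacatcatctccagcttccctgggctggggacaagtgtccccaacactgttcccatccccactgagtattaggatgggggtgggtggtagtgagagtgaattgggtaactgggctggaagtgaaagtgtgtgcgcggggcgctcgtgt
PAX5, chr9:37034269-37034518, minus strand: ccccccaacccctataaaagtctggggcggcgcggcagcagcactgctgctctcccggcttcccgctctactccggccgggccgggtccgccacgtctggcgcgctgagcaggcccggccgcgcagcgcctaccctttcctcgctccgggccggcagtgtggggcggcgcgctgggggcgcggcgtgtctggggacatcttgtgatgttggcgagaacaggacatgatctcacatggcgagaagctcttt
BACH2, chr6:90296844-90297093, minus strand: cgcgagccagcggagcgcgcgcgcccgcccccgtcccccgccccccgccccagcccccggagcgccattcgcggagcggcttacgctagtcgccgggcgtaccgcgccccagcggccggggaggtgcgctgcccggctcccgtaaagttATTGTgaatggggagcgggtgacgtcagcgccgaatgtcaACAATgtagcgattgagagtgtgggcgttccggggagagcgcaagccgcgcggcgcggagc
The SOX core was searched as ACAAT on both strands and occurred in 24.6% of the 35116 promoter windows of this length. BACH2 had 2 matches, which began 101 and 61 bases upstream of the start, and the other 5 members searched had 0. The octamer ATGCAAAT, in 1.63% of all windows, was found in 0 of the 6, on either strand. The E-box CANNTG, found in 61.8% of all windows, occurred 2 times each in EBF1 and POU2F2, and 1 time each in PAX5 and SPIB. A match describes letters only, and a window without one says nothing of the factor.

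The 2% trimmed mean was 150 on each array, an equality that scaling in MAS5 produces, so it does not measure how alike the arrays were. Median signals were 24.3 and 23.9 on the shSOX11 arrays and 25.7 and 25.3 on the shControl arrays. SOX11 itself, the hairpins' target, had 335 and 339 with the shSOX11 constructs, against 797 and 787 with the scrambled ones, at its brightest probe set, 42.5% of control (limma log2 change -1.23, SE 0.16, adjusted p = 0.206). At another probe set SOX11 had 121 and 164 with the shSOX11 constructs against 296 and 327 with the scrambled ones, 45.4% of control. At the third it had 203 and 135 against 439 and 482, 36.0% of control, so that the constructs were in opposite order at these probe sets. The array's beta-actin controls, whose 3′ over 5′ ratio moves with RNA length and labelling, gave ratios of 7.29 and 5.31 on the shSOX11 arrays and 11.6 on both shControl arrays. The same ratio of GAPDH was 1.01 and 1.03 on the shSOX11 arrays and 0.978 and 1.06 on the shControl arrays, which overlap. The part of the actin difference in the differences below was not tested.

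The cells carried B-cell transcripts on all arrays. The 4 B-cell markers CD79A, CD79B, MS4A1 and CD22 summed to 7676 and 8308 on the shSOX11 arrays and 9594 and 9178 on the shControl arrays, most of it MS4A1. CD22, a receptor that restrains B-cell signalling, was dim, with 39.8 in shSOX11.1 and 4.94 in shSOX11.3 cells, against 48.2 and 67.0 in shControl cells. Its value on shSOX11.3 lies under the signal threshold of 24.83, the median of all values. All 4 markers had a log2 change below 0, with a median of -0.49, and 3 were lower on both shSOX11 arrays without overlap, beside 24.9% of all genes. The part of these markers in the differences of the members was not tested. The 6 T-cell markers summed to 245 and 252 on the shSOX11 arrays and 246 and 286 on the shControl arrays, with CD8A under the threshold on every array and CD2 and CD3G the only ones above it on at least 2. The 5 myeloid markers summed to 108 and 89.8 on the shSOX11 arrays and 66.3 and 61.2 on the shControl arrays. CD14 and LYZ were under the threshold on all 4. CSF3R (30.6 and 30.3) and CSF1R (25.7 and 28.9) lay just above it on the shSOX11 arrays. Both were under it on both shControl arrays, so the sums compare values near or under the threshold. The 5 epithelial and stromal markers summed to 1128 and 941 against 1154 and 1103, most of it COL1A1 (1047 and 881 against 1063 and 1012), and EPCAM and PDGFRB were under the threshold on all 4. The part of the myeloid markers in any result below was not tested.

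Of the 22 probe sets 16 passed the filter, a signal above the threshold on at least 2 of the 4 arrays. All 7 genes were represented, and each of the 16 lay above the threshold on every array, so none passed through 1 group alone. The remaining 6, namely 1 each of PAX5, POU2AF1 and FOXO1 and 3 of POU2F2, were too dim to test.

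**Figure D1:**
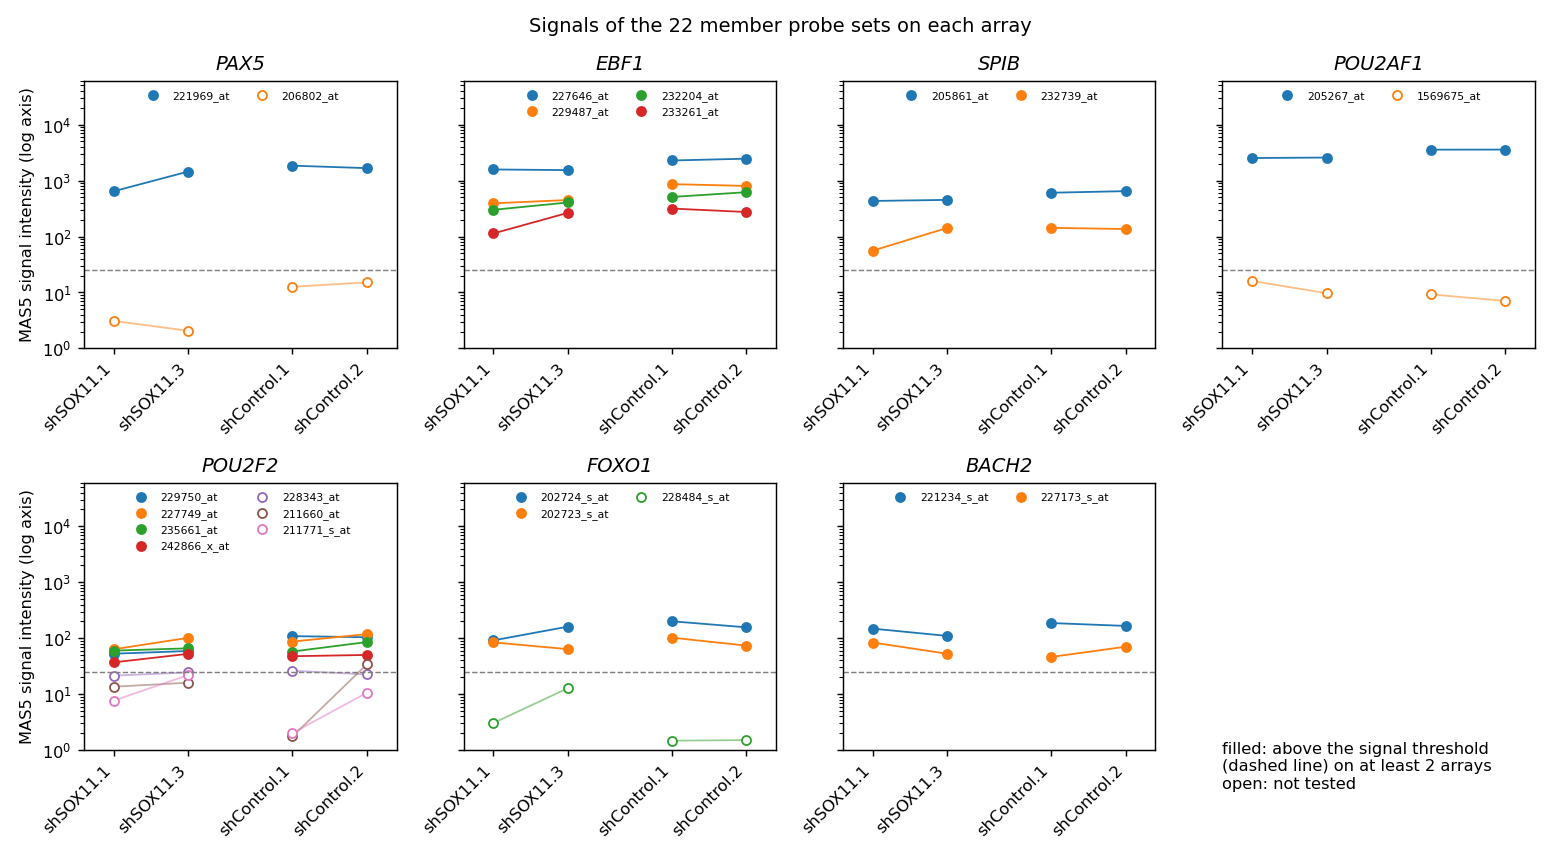
MAS5 signal intensity (log axis) of the 22 probe sets of the 7 genes on the 2 shSOX11 and the 2 shControl arrays, 1 panel a gene and 1 colour a probe set, with filled points for the 16 tested and open points for the 6 not tested. The dashed line is the signal threshold of 24.83. Among the filled points, those of EBF1 and POU2AF1 sit lower on both shSOX11 arrays, and that of PAX5 is lowest on shSOX11.1.

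EBF1, the early B-cell factor, was lower on both shSOX11 arrays at all 4 of its probe sets. At the brightest, 227646_at, it had 1578 and 1535 on the shSOX11 arrays against 2282 and 2459 on the shControl arrays. The constructs lay close together there, at 66.6% and 64.8% of the control mean, and the groups did not overlap (log2 means 10.60 ± 0.03 and 11.21 ± 0.08, SD, n = 2 each). The log2 change was -0.61 with an SE of 0.14, 1.52-fold lower, and limma's adjusted p over 28202 probe sets was 0.412. In bulk RNA a lower signal from fewer EBF1-expressing cells and one from less EBF1 RNA per cell cannot be told apart, and the same holds for every gene here.
The widest gap that both constructs shared was at EBF1 probe set 229487_at, with 392 and 448 on the shSOX11 arrays against 863 and 802 on the shControl arrays. Every shSOX11 value there was at least 1.5-fold below every shControl value, at 47.2% and 53.9% of control. The log2 change was -0.99 with an SE of 0.17, and limma's adjusted p was 0.348.
At EBF1 probe set 232204_at the signals were 300.0 and 405 on the shSOX11 arrays against 509 and 619 on the shControl arrays, a log2 change of -0.69 (SE 0.21). At the dimmest, 233261_at, they were 114 and 264 against 316 and 274. Here shSOX11.3 stood at 89.9% of control and shSOX11.1 at 38.6%, a gap of -1.22 on the log2 scale between the constructs, beside -0.20 between the shControl arrays. The 4 EBF1 probe sets therefore ranged from -0.99 to -0.61 in log2 change, with limma adjusted p between 0.348 and 0.613. With shSOX11.1 left out, the log2 changes of the 4 EBF1 probe sets, in the order named, were -0.63, -0.89, -0.47 and -0.15. With shSOX11.3 left out they were -0.59, -1.08, -0.90 and -1.37. Such a fit takes its error from the shControl arrays alone, so only sizes are given. Over the alternatives that kept all 4 arrays, the limma adjusted p of the brightest probe set ranged from 0.295 to 0.691.

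PAX5 had 1 probe set above the threshold, 221969_at, and the constructs disagreed on it. It measured 646 with shSOX11.1 and 1450 with shSOX11.3, against 1845 and 1666 on the shControl arrays. Both shSOX11 values were below both shControl values, but shSOX11.1 stood at 36.8% of the control mean and shSOX11.3 at 82.7%, a 2.25-fold gap between constructs. The difference between the shControl arrays was -0.15 on the log2 scale. Group log2 means were 9.92 ± 0.83 and 10.78 ± 0.10 (SD, n = 2 each), with a log2 change of -0.86 (SE 0.32, limma adjusted p = 0.554). Without shSOX11.3 the change was -1.44, and without shSOX11.1 it was -0.27. Error in these fits came again from the shControl arrays alone. Over the alternatives that kept all 4 arrays, the limma adjusted p ranged from 0.436 to 0.719.
The second PAX5 probe set, 206802_at, had 3.10 and 2.07 on the shSOX11 arrays and 12.6 and 15.2 on the shControl arrays. All 4 of these lie under the threshold, so no fold is given.

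SPIB, the ETS factor, was lower by a similar amount with both constructs at its brighter probe set and with 1 construct at the other. At 205861_at it had 432 and 451 on the shSOX11 arrays against 606 and 647 on the shControl arrays. The values did not overlap. Log2 means were 8.79 ± 0.04 and 9.29 ± 0.07 (SD, n = 2 each), for a log2 change of -0.50 (SE 0.16, limma adjusted p = 0.523). At 232739_at the signal was 55.9 on shSOX11.1, 142 on shSOX11.3, and 143 and 136 on the shControl arrays. Only shSOX11.1 was low there, at 40.1% of control against 102% for shSOX11.3, a 2.54-fold gap. That probe set had a log2 change of -0.64 with an SE of 0.39.

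POU2AF1, the coactivator OBF1, showed the tightest groups among the members. Its probe set 205267_at had 2526 and 2577 on the shSOX11 arrays against 3565 and 3574 on the shControl arrays. Log2 means were 11.32 ± 0.02 and 11.80 ± 0.0028 (SD, n = 2 each). The constructs thus stood at 70.8% and 72.2% of control, 1.40-fold lower in the mean (log2 change -0.48, SE 0.14, limma adjusted p = 0.476). Without shSOX11.1 the log2 change was -0.47 and without shSOX11.3 it was -0.50, in fits like those described for EBF1. Over the alternatives that kept all 4 arrays, the limma adjusted p ranged from 0.348 to 0.691. The other POU2AF1 probe set, 1569675_at, lay between 7.06 and 16.1 and was not tested.

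POU2F2, which encodes OCT2, had probe sets that disagreed. At 229750_at it had 52.9 and 59.1 on the shSOX11 arrays against 109 and 104 on the shControl arrays, at least 1.5-fold apart on every pair of arrays. The constructs stood at 49.6% and 55.5% of control there (log2 change -0.93, SE 0.25, limma adjusted p = 0.466). At the probe set with the highest mean, 227749_at, the signals were 63.6 and 102 on the shSOX11 arrays and 87.1 and 118 on the shControl arrays, which overlap. The change of -0.34 (SE 0.30) at that probe set came from shSOX11.1, since shSOX11.3 was at 100.1% of control. The other tested POU2F2 probe sets, 235661_at and 242866_x_at, overlapped too, with log2 changes of -0.16 (SE 0.30) and -0.15 (SE 0.35). The ending _x_at marks possible cross-hybridization. The 3 dim ones, 228343_at, 211660_at and 211771_s_at, lay between 7.70 and 24.5 on the shSOX11 arrays and between 1.76 and 34.1 on the shControl arrays.

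FOXO1, the forkhead factor, overlapped between groups at both of its tested probe sets. At 202724_s_at it had 91.5 and 161 on the shSOX11 arrays against 201 and 157 on the shControl arrays, with a log2 change of -0.55 (SE 0.29, limma adjusted p = 0.635). As with PAX5, shSOX11.1 was the lower construct, at 51.6% of control against 90.7% for shSOX11.3. At 202723_s_at the order of the constructs was the other way round, with 84.1 and 63.8 on the shSOX11 arrays against 102 and 73.7 on the shControl arrays (log2 change -0.25, SE 0.29). The third FOXO1 probe set, 228484_s_at, was under the threshold on every array, at 3.05 and 12.8 against 1.48 and 1.51.

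BACH2, the repressor of PRDM1, had probe sets on both sides of 0. At 221234_s_at it had 148 and 110 on the shSOX11 arrays against 187 and 166 on the shControl arrays. The groups did not overlap, and here shSOX11.3 was the lower construct, at 62.4% of control against 84.3% for shSOX11.1 (log2 change -0.46, SE 0.23, limma adjusted p = 0.620). At 227173_s_at the values were 83.7 and 52.8 against 46.3 and 70.5. They overlapped, and the log2 change was 0.22 with an SE of 0.35, the only positive one among the 16 tested.

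None of the 16 tested probe sets passed an adjusted p of 0.05 in limma, where 1 of all 28202 was called lower (0.00355%) and 0 higher (0%). The smallest two-sided p that an exact permutation test allows in this design is 0.333. At an unadjusted limma p under 0.05 there were 7 member probe sets, all lower (3 of EBF1 and 1 each of PAX5, SPIB, POU2AF1 and POU2F2), where 3.76% of all probe sets were called lower and 4.5% higher. The groups did not overlap and shSOX11 was the lower one at 9 of the 16, against 21.8% of all probe sets, and the higher one at 0, against 18.9%. The 9 belong to 6 of the 7 genes, all but FOXO1. At least 1.5-fold lower on all 4 pairs were 2 of the 16, the EBF1 probe set 229487_at and the POU2F2 probe set 229750_at, against 1.87% of all. Members share genes, so the 16 are not 16 separate observations. The 7 genes were also chosen with earlier results of these data known, so these counts beside the shares over all probe sets only describe. The log2 change was below 0 at 15 of the 16, with a median of -0.53, beside 53.3% of all probe sets and a median of -0.03.

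**Figure D2:**
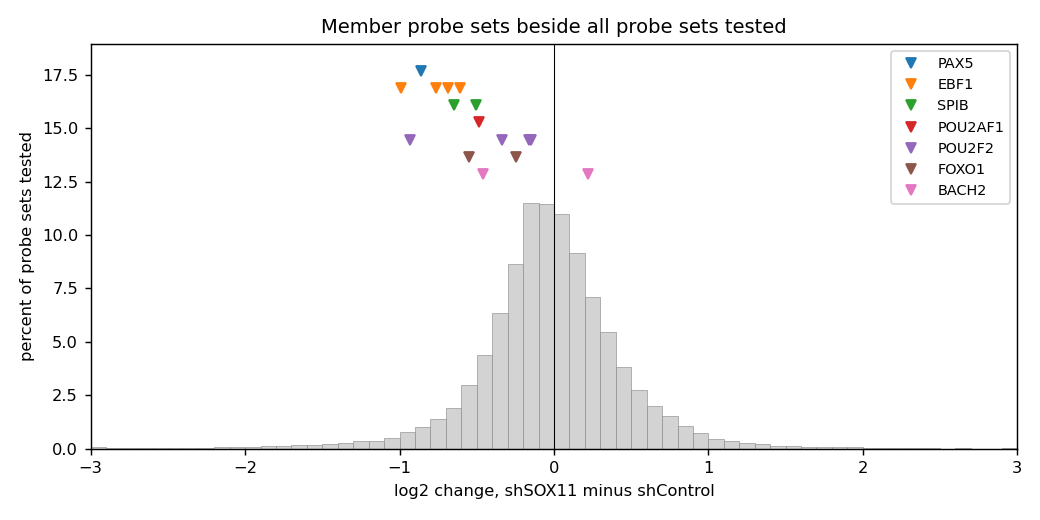
Histogram of the log2 change (shSOX11 minus shControl) of all 28202 probe sets tested, as percent of probe sets per bin, with values beyond the axis collected in the outermost bins, and triangles above it at the changes of the 16 tested member probe sets, 1 row and colour a gene. The height of a triangle carries no value. Of the triangles 15 lie left of 0, and 1 of BACH2 lies right of it.

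Each construct by itself can be described but not tested, having 1 array. On shSOX11.1, 9 of the 16 probe sets were at least 1.5-fold below the shControl mean, against 10.6% of all probe sets, and on shSOX11.3 there were 4, against 11.6%. At least 1.5-fold higher were 0 of the 16 on either, against 8.52% and 12.8%. The median over the 16 was -0.63 for shSOX11.1 and -0.36 for shSOX11.3, beside -0.01 and -0.02 over all probe sets, and shControl.2 minus shControl.1 gave -0.03 over the 16, with 8.06% of all probe sets at least 1.5-fold lower on shControl.2. The signal was lower on shSOX11.1 than on shSOX11.3 at 12 of the 16, while 49.5% of all probe sets had that order. In 4 cases (PAX5 221969_at, EBF1 233261_at, SPIB 232739_at and FOXO1 202724_s_at, singled out after their values were seen) shSOX11.1 stood at 36.8% to 51.6% of control and shSOX11.3 at 82.7% to 102%. In SOX11 itself the constructs were alike at the brightest probe set and apart, in opposite order, at the other 2, as given above. The log2 differences between 2 arrays of a group were wider in the shSOX11 group, with a median absolute deviation of 0.329 over all probe sets, than in the shControl group, with 0.213.

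**Figure D3:**
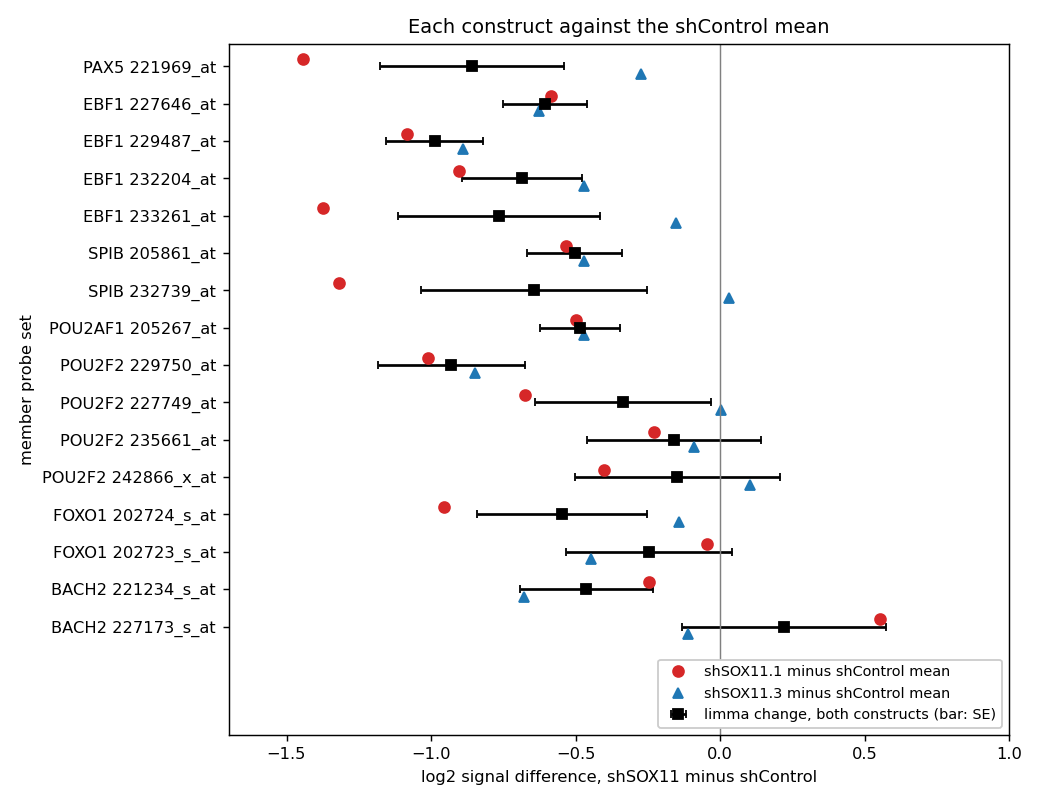
Log2 signal difference from the shControl mean of the 16 tested member probe sets (rows), with shSOX11.1 as circles, shSOX11.3 as triangles and the limma change of both with its SE as squares and bars. The constructs lie together for EBF1 227646_at, SPIB 205861_at and POU2AF1, and far apart for PAX5, EBF1 233261_at and SPIB 232739_at.

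The genes most like PAX5 over the 4 arrays, by the root mean square distance between log2 signals centred on their own mean at 1 probe set a gene, were REC8 (0.059), EIF4EBP2 (0.063) and IKZF2 (0.066), of 11937 others. IKZF2, the Ikaros family factor Helios, had 711 and 1731 on the shSOX11 arrays against 2310 and 1984 on the shControl arrays. For EBF1 they were DENND4B (0.018), CDKN2AIPNL (0.029) and PRDM15 (0.033). DENND4B had 178 and 179 on the shSOX11 arrays against 264 and 282 on the shControl arrays. Within a distance of 0.1 there were 8 genes for PAX5 and 130 for EBF1.

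Genes known, largely from work in mice, to be under the control of these factors were read from the same fit at each gene's brightest probe set. Over all 11938 genes so represented, the median log2 change was -0.06, with 58.1% of genes below 0 and 41.9% above. Of these genes 24.9% were lower and 16.2% higher on both shSOX11 arrays without overlap, and 4.66% and 3.06% were lower and higher at an unadjusted limma p under 0.05. In none of the 7 lists did a gene pass the adjusted threshold in limma.
Of 15 genes that PAX5 or EBF1 activate, 9 were tested, 7 with a log2 change below 0 (8 with quantile normalization and 6 with median centring), 3 lower on both shSOX11 arrays and 0 higher on both, with a median of -0.33 (-0.27 for shSOX11.1 and -0.37 for shSOX11.3). VPREB3, related to the surrogate light chain, had 121 and 274 on the shSOX11 arrays against 602 and 471 on the shControl arrays (log2 change -1.55, SE 0.34, limma adjusted p = 0.397). CD79B, which carries the receptor's signal into the B cell, had 535 and 658 against 916 and 992 (log2 change -0.68, SE 0.17). These 2 had an unadjusted limma p under 0.05. IGLL1, a surrogate light chain gene, followed at 7434 in shSOX11.1 and 3273 in shSOX11.3 cells, against 6637 and 7999 on the shControl arrays. These groups overlap, and the low array was shSOX11.3 (log2 change -0.56, SE 0.32). CD79B and CD79A are also among the B-cell markers above, at the same probe sets, so the list and the markers are not separate observations.

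Of 9 genes that PAX5 represses, 5 were tested, with 0 at an unadjusted limma p under 0.05. CSF1R passed the filter through the shSOX11 arrays alone and is left out of the counts that follow. The other 4 had log2 changes between 0.07 and 0.27 (median 0.14). Of them 1, XBP1, was higher on both shSOX11 arrays without overlap, beside 16.2% of all genes. XBP1, which drives secretion in plasma cells, had 987 and 832 on the shSOX11 arrays against 769 and 738 on the shControl arrays (log2 change 0.27, SE 0.17). CSF1R, a myeloid receptor and also 1 of the myeloid markers above, had 25.7 and 28.9 on the shSOX11 arrays and was under the threshold on both shControl arrays, which makes it at least 1.10-fold higher. NOTCH1, a receptor of T-lineage choice, had 273 and 209 against 190 and 235, which overlap. With shSOX11.1 left out 2 of the 4 were above 0, and with shSOX11.3 or shControl.1 left out 3 were.

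The remaining lists had members on both sides or few that were measured. Of 4 genes linked to OCT2 and OBF1, 2 were tested. MS4A1, which encodes CD20, is also 1 of the B-cell markers above. It had 6823 and 7426 on the shSOX11 arrays against 8358 and 7778 on the shControl arrays (log2 change -0.18, SE 0.14). However, 2 of its 4 tested probe sets lay above 0. The kinase BTK overlapped, with 202 and 417 against 241 and 208.
Of 11 FOXO1 targets 6 were tested, with a median of -0.21. On both shSOX11 arrays 4 were lower and 2 higher without overlap, beside 24.9% and 16.2% of all genes. SESN1, which is also a p53 target, was higher, with 414 and 543 on the shSOX11 arrays against 291 and 302 on the shControl arrays (log2 change 0.68, SE 0.19, limma adjusted p = 0.476). IRS2, an adaptor of insulin signalling, was at -0.40 (SE 0.22) and CCNG2, a cyclin of arrested cells, at -0.31 (SE 0.21), with the 4 tested probe sets of CCNG2 split evenly between directions.
The BACH2-repressed genes PRDM1 and HMOX1 had log2 changes of 0.11 (SE 0.22) and 0.85 (SE 0.60), the second at signals near the threshold (26.9 and 45.1 on the shSOX11 arrays against 26.5 and 14.1 on the shControl arrays). Of the 3 tested probe sets of PRDM1, 1 lay below 0 and 2 above.

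Among 12 other transcription factors of the B lineage 9 were tested. On both shSOX11 arrays 4 were lower and 1 higher without overlap, beside 24.9% and 16.2% of all genes. Their median log2 change was 0.03, but lay between -0.18 and -0.08 with an array left out. TCF3, which encodes E2A, had 1717 and 2067 on the shSOX11 arrays against 2917 and 2649 on the shControl arrays (log2 change -0.56, SE 0.16, limma adjusted p = 0.476). It was lower at 6 and higher at 4 of its 10 tested probe sets. ETS1 and IRF4 were at -0.30 (SE 0.17) and 0.24 (SE 0.15), with the 2 tested probe sets of IRF4 on either side of 0. Of 11 paralogs of the members 3 were tested. FOXO3, a forkhead relative of FOXO1, had 913 and 662 on the shSOX11 arrays against 1069 and 966 on the shControl arrays (log2 change -0.39, SE 0.19), and was lower at 2 and higher at 1 of its 3 tested probe sets. BACH1 was at 0.34 (SE 0.24) and PAX8 at -0.32 (SE 0.23).

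**Figure D4:**
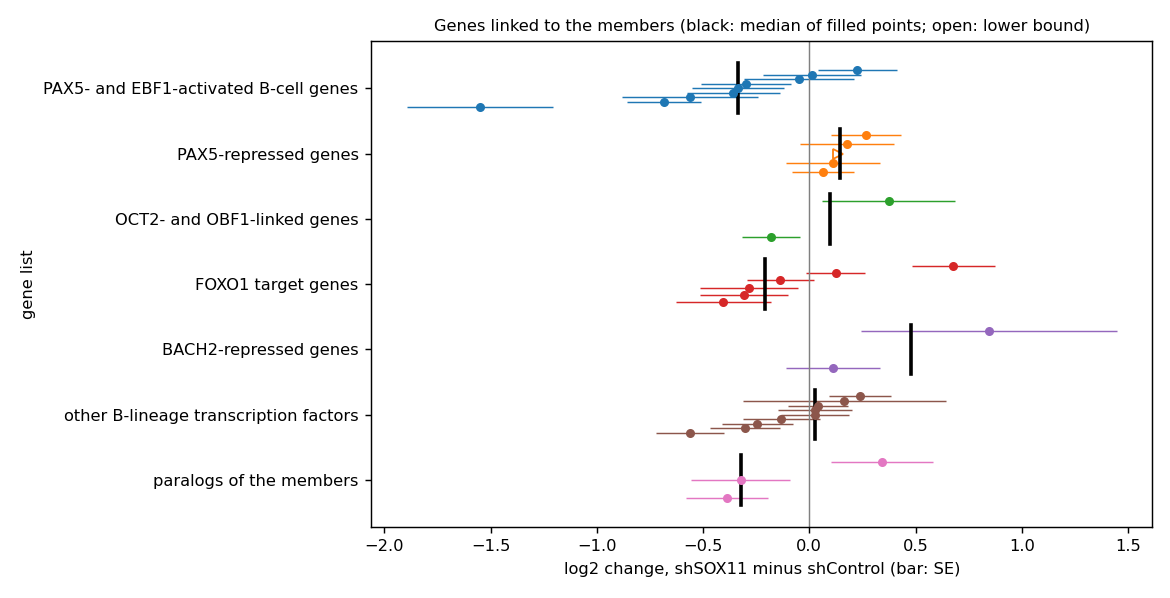
Log2 change (shSOX11 minus shControl, bar SE) of the genes tested in each of the 7 lists, 1 point a gene, with the median of the filled points in black and CSF1R as an open triangle at its lower bound. VPREB3 lies farthest left, at -1.55, in the list of PAX5- and EBF1-activated genes, and the 4 filled points of the PAX5-repressed genes lie between 0.07 and 0.27.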

How the data were processed

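Total RNA of 4 Z138 samples was hybridised to 1 array each, and groups came from the sample titles. The deposited values are the authors' signal intensity of each probe set, not log transformed, for which the submitters' processing notes name Affymetrix Expression Console and MAS5. Neither program versions nor the scaling target are given there. MAS5 subtracts mismatch signals, which makes dim probe sets noisy.

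No pseudocount was added before taking log2, and arrays were not normalized further, since scaling had already made the trimmed means equal. The 62 array controls were left out, and 28202 of the other probe sets exceeded 24.83 (the overall median signal) on at least 2 arrays. Each was fitted over all 4 arrays with limma 3.58.1 (R 4.3.3; lmFit, then eBayes with a trend on intensity; two-sided tests), and p-values were adjusted over all of them by Benjamini-Hochberg. The number of arrays limits the precision. Gene names come from the platform annotation, and all 7 members matched RefSeq. Where a group lay under the threshold on both its arrays, the other group's mean over the threshold is given as a bound.

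Genes beyond the members were named as the 3 of the smallest p in each list and the 3 nearest in pattern to PAX5 and EBF1. The members, lists and motifs were chosen with earlier results of these data known.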

Additional observations from a re-analysis of the deposited data

How the results depend on the processing

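With 2 arrays a group, calls rest on few degrees of freedom. The 14 alternatives were a pseudocount of 32, median centring, quantile normalization, thresholds at the 35th and 65th percentile, no filter, limma without the trend, limma's robust fit, 1 probe set a gene, no probe sets ending in _x_at, and each array left out. With all 4 arrays the log2 changes of the 7 members at their brightest probe sets kept their direction and stayed above an adjusted p of 0.05 in limma. No paired analysis was possible because the labels name no pairs between the groups.

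The count of all probe sets past the adjusted threshold, 1 as reported, was 0 with median centring, at the 65th percentile, with no filter, without the trend, with 1 probe set a gene and with no probe sets ending in _x_at, and between 0 and 1585 with an array left out. Member probe sets past it numbered 0 in every alternative that kept all 4 arrays, where between 0 and 1 of all probe sets were called. With 1 probe set a gene 5 of the 7 members were lower without overlap, beside 24.9% of all genes. At least 1.5-fold lower were 4 on shSOX11.1 and 2 on shSOX11.3, fewer because 7 were counted. The shares for these 1.5-fold counts were taken over probe sets only, at 10.6% and 11.6% in the main fit. Median centring, which moved the median of all probe sets from -0.03 to 0.05, also gave 2 on shSOX11.3. Alternatives for the 1.5-fold counts by construct were added after seeing the data. With an array left out the log2 change ranged from -1.44 to -0.27 for PAX5, from -0.66 to -0.55 for EBF1, from -0.55 to -0.46 for SPIB, from -0.50 to -0.47 for POU2AF1, from -0.95 (without shSOX11.3) to -0.14 (without shSOX11.1) for FOXO1, from -0.68 (without shSOX11.1) to -0.25 (without shSOX11.3) for BACH2, and from -0.68 to 0.00086 for POU2F2, the last value turned in sign without shSOX11.1. The lone array left in a group is assumed there to vary like the other group.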
